A study of Caenorhabditis elegans with 3 samples.

Results

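RNAi against ham-3 was set against RNAi against gfp in whole wild-type (N2) Caenorhabditis elegans, and the members described here are the 14189 genes of that pair, out of 46135 genes in the deposited table, that had a mean of at least 1 FPKM and were above 0 in both libraries. FPKM is the number of sequenced fragments scaled to the length of the transcript and to the number of mapped fragments in the library. Of the genes in the table, 19816 were above 0 in at least 1 library of the pair. Another 494 genes reached a mean of 1 FPKM but were listed at 0 in 1 library, and they were left out of every ratio.

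The study holds 3 libraries of poly(A) RNA from worms fed bacteria that carried an RNAi clone, 1 library each for gfp, ham-3 and swsn-2.2. All animals were N2, synchronised as L1 larvae and harvested at L4, the last larval stage, after 36 hours of growth. The series design names 25 °C for that growth while the protocol names 35 °C, which leaves the temperature unclear. Worms carry no gfp gene, so the gfp clone serves as the feeding control, and no strain carried a transgene or a mutation that the labels name. Each library pools whole animals, and fewer cells of a type and less RNA per cell cannot be told apart in it. With 1 library a side there are no replicates, no test was possible and every difference below describes 2 libraries.

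SWI/SNF complexes are ATP-driven machines that slide or evict nucleosomes and so change which stretches of DNA are open to transcription factors. HAM-3 and its paralog SWSN-2.2 are accessory subunits of the worm complex, related to the BAF60 subunits of mammals. The name ham-3 comes from the HSN motor neuron, whose migration and serotonergic fate are abnormal in mutants. In feeding RNAi, double-stranded RNA made by the bacteria enters the intestine, spreads through the body and lowers the matching messenger RNA, with neurons generally less sensitive than other tissues.

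Throughout, triplets of values are FPKM in the order gfp RNAi, the library labelled ham-3 and swsn-2.2 RNAi. A log2 ratio is the log2 of (FPKM + 1) in the library labelled ham-3 over (FPKM + 1) in gfp RNAi, so it understates differences of weakly expressed genes. For some genes with a single transcript, those whose deposited position matched the annotated one, the log2 of the plain FPKM ratio is given with a 95% interval, which covers counting error only and not the variation between cultures.

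The targeted gene did not follow its label. The ham-3 gene (ZK1128.5, chromosome III, 10120781 to 10122927 in the deposited coordinates, whose genome build is not named) was at 19.3, 23.1 and 31.5 FPKM. It was thus lowest in the gfp library and not lowered in the library labelled ham-3, where the log2 of its FPKM ratio was 0.26 (95% counting interval 0.10 to 0.41). The paralog swsn-2.2 (C18E3.2, chromosome I, 4210977 to 4212667) was at 19.3 and 37.8 FPKM and was listed at 0 under swsn-2.2 RNAi. That 0 can be a failed estimate, so the extent of the knockdown is not known. The level of swsn-2.2 was higher in the library labelled ham-3 than in gfp RNAi, with a log2 ratio of 0.93. The authors' deposited table was read as holding no test of swsn-2.2 for this pair. Directions below are those of the library labelled ham-3, whatever its ham-3 level.

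Apart from swsn-2.2, the subunits of the complex lay close to or slightly above the control. Over 9 core subunits, swsn-2.2 included, 8 ratios were above 0, with a median log2 ratio of 0.16, and swsn-2.2 was the 1 member at 1.5-fold. The ATPase gene swsn-4 was at 29.6, 40.3 and 41.6 FPKM, and swsn-1, which encodes a scaffold subunit, was at 15.3, 18.6 and 17.8. Both were lowest in the gfp library. The BAF-class gene let-526 and the PBAF-class gene swsn-7 had log2 ratios of 0.23 and 0.27, and the PBAF-class bromodomain gene swsn-9 one of -0.02. Relative to genes of like transcript length the median of the core subunits was 0.13, and the ratios were 0.31 for swsn-4, 0.14 for swsn-1, 0.11 for let-526 and 0.14 for swsn-7.

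Most genes differed little. The median log2 ratio over the 14189 genes was 0.03, with quartiles of -0.11 and 0.15, and 95.5% of genes lay within 1.5-fold on the FPKM + 1 scale. At 2-fold, 43 genes were higher (0.303%) and 73 were lower (0.514%). At 1.5-fold, 233 were higher (1.64%) and 404 lower (2.85%). Ratios above 0 made up 55.9% of all genes. These shares are the background against which the gene groups below are read.

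**Figure D1:**
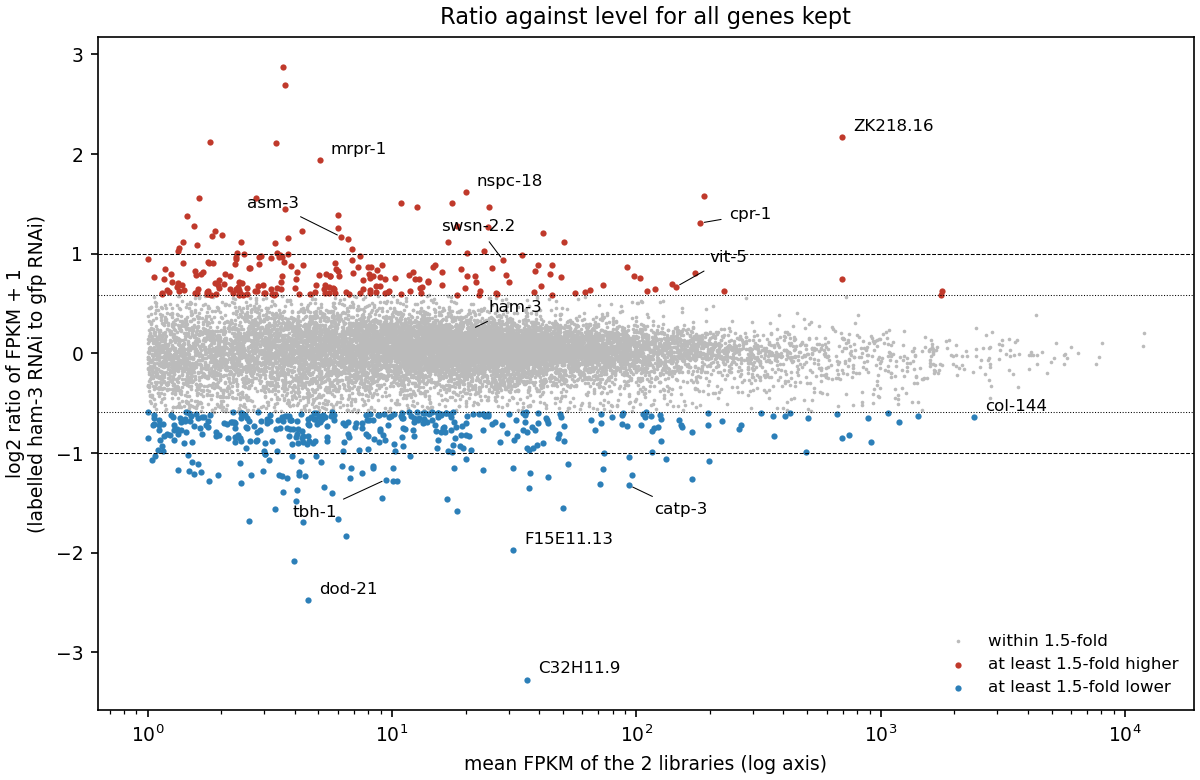
Each point is 1 of the 14189 genes, with its mean FPKM over both libraries on a log axis and its log2 ratio of FPKM + 1 on the other; dotted lines mark 1.5-fold and dashed lines 2-fold. Most points lie within 1.5-fold (95.5%), C32H11.9 is the lowest at -3.27, and ham-3 lies inside the band at 0.24.

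The gene furthest from control was C32H11.9, a CUB-like gene named cld-1 in RefSeq, and it was lower. It was at 65.8, 5.91 and 212 FPKM, so it was lowest in the library labelled ham-3 and highest under swsn-2.2 RNAi. The log2 of its FPKM ratio was -3.48 (95% counting interval -3.71 to -3.25). Its neighbour dod-21 was at 8.40, 0.691 and 22.8 FPKM, with the same order of the libraries, and dod-24, which follows it on chromosome IV, was at 87.1, 56.9 and 132. The dod genes take their name from regulation downstream of the FOXO factor DAF-16.

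Several other protein-coding genes at moderate levels were at least 2-fold lower. The gene catp-3, of the P-type cation ATPases, was at 134, 52.8 and 114 FPKM, a log2 ratio of -1.32. The octopamine synthesis gene tbh-1, which encodes tyramine beta-hydroxylase, was at 13.8, 5.14 and 16.8 FPKM, a log2 ratio of -1.27. For both, the library labelled ham-3 was the low one of the 3. B0024.4, a protein-coding gene with no name, was at 75.5, 25.1 and 90.5 FPKM, and the log2 of its FPKM ratio was -1.59 (95% counting interval -1.71 to -1.47). F15E11.13, named pud-1.1 in RefSeq, was at 50.7, 12.2 and 35.6 FPKM. Here too the labelled library stood below both others, and pud-1.1 is a near copy of the far more abundant pud-1.2 (Y19D10B.7), so fragments may be split between them. Y19D10B.7 was at 11069, 12795 and 13539 FPKM, and it was named after its values were seen.

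Among the other genes with the lowest ratios were B0205.14 (28.1, 8.73 and 19.5 FPKM) and T23F2.4 (9.64, 2.35 and 7.94 FPKM), both protein-coding genes with no name. The swt-6 gene, of the SWEET sugar transporter family, was at 27.5, 12.7 and 20 FPKM. The sdz-27 gene, named as a SKN-1-dependent zygotic transcript, was at 72.4, 32.9 and 51.8 FPKM. In these 4 genes the library labelled ham-3 was the lowest and gfp RNAi the highest. The chemoreceptor gene srw-86 was at 25.0, 10.8 and 19.4 FPKM, and the log2 of its FPKM ratio was -1.22 (95% counting interval -1.54 to -0.91). The non-coding genes anr-5 (10.7, 2.28 and 2.28 FPKM) and linc-10 (9.87, 3.58 and 4.44 FPKM) were high in gfp RNAi alone. Whether the counting used strand is not given in the sources used here, so an antisense RNA such as anr-5 cannot be told apart from its partner.

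On the higher side the largest protein-coding difference at a substantial level was cpr-1, an intestinal cathepsin B-like cysteine protease gene. It was at 104.6, 260 and 171 FPKM, a log2 ratio of 1.31, so gfp RNAi was the lowest and the library labelled ham-3 the highest. The gene asm-3, which encodes an acid sphingomyelinase, was at 3.43, 8.96 and 5.38 FPKM. The C-type lectin genes clec-227 (4.40, 9.36 and 6.56 FPKM) and clec-60 (6.07, 12.1 and 8.70 FPKM) had the same order of the libraries. For clec-227 the log2 of the FPKM ratio was 1.09 (95% counting interval 0.74 to 1.44). The detoxification genes ugt-41 (10.2, 19.8 and 11.86 FPKM) and gst-8 (3.75, 7.93 and 4.58 FPKM) were high in the library labelled ham-3 and near control under swsn-2.2 RNAi. For ugt-41 the log2 of the FPKM ratio was 0.96 (95% counting interval 0.77 to 1.14).

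Short and structural RNAs filled many of the other high places. Of the 43 genes at least 2-fold higher, 28 are protein coding. ZK218.16 and ZK218.12, the 5S ribosomal RNA genes rrn-4.2 and rrn-4.1 of RefSeq, were at 252, 1142 and 758 FPKM and at 94.7, 285 and 253 FPKM. The small nucleolar RNA genes F52G3.6 (6.25, 19.1 and 21.3 FPKM) and F41E6.18 (10.3, 26.5 and 27 FPKM) were low in gfp RNAi alone. The non-coding mrpr-1 (1.5, 8.62 and 7.62 FPKM) and the hedgehog-related pseudogene grl-32 (8.64, 26.4 and 24.1 FPKM) followed that order as well. In linc-1 (12.7, 37 and 16 FPKM) and the non-coding F43D9.8 (5.16, 16.5 and 3.33 FPKM) the library labelled ham-3 stood alone as the high one.

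**Figure D2:**
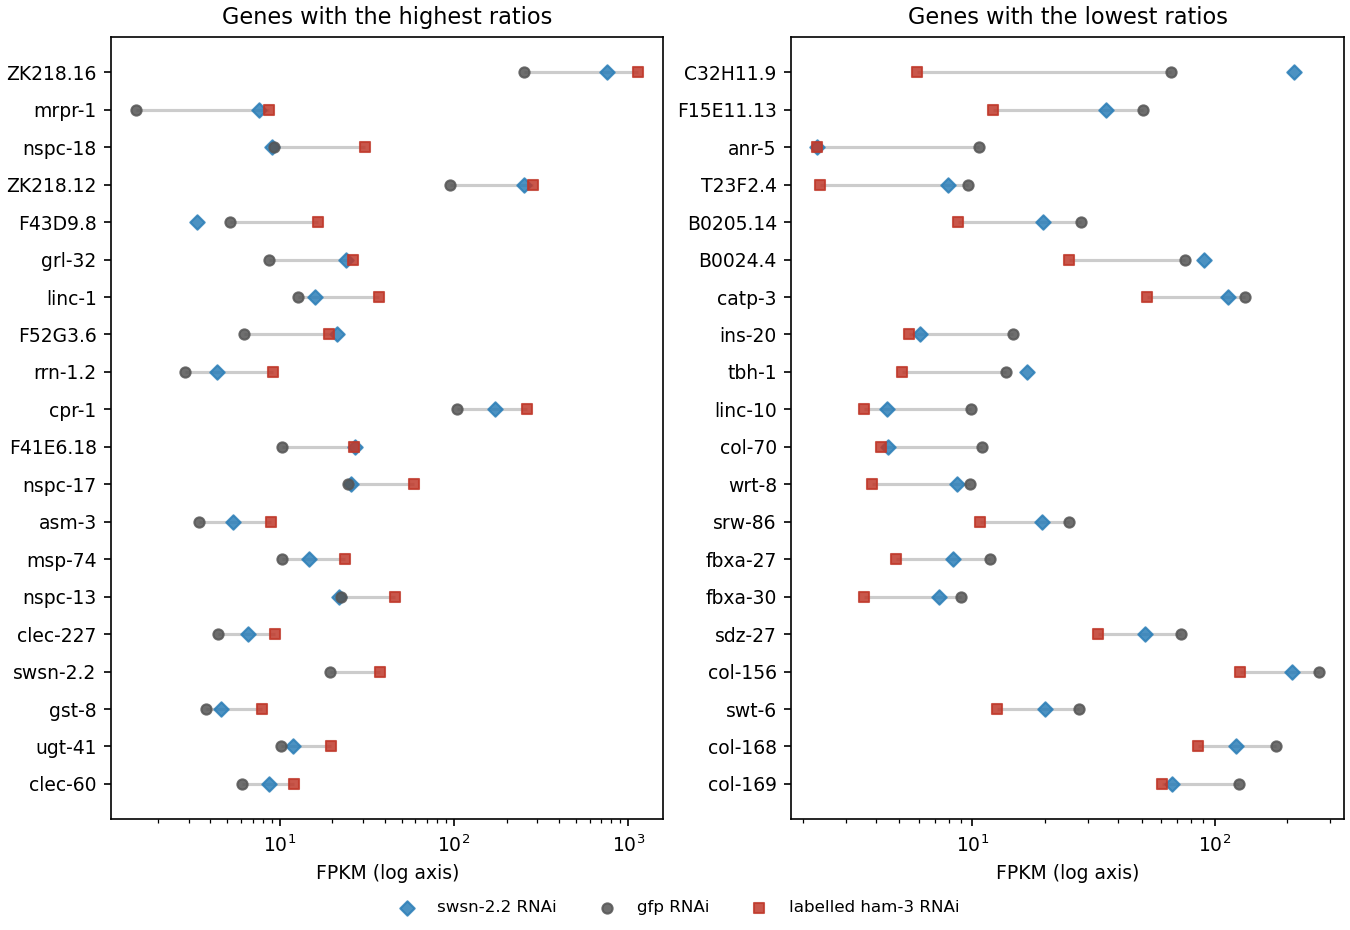
FPKM on a log axis of the 20 genes with the highest and the 20 with the lowest ratios among genes with a mean of at least 5 FPKM, with 1 marker per library; swsn-2.2 has no marker for swsn-2.2 RNAi, where it is listed at 0. In C32H11.9 the swsn-2.2 RNAi marker lies to the right of gfp RNAi (212 against 65.8 FPKM), while in nspc-18 and nspc-17 it lies at the gfp RNAi marker.

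Cuticle collagens of the col family, which build the layered cuticle that larvae replace at each moult, were mostly lower. Of 123 col genes kept, 94 had a ratio below 0 (76.4%) and 29 above, with a median of -0.20. At 1.5-fold, 17 were lower (13.8% of the family, against 2.85% of all genes) and 2 were higher. Their summed level was 78478, 65198 and 76930 FPKM, so the library labelled ham-3 had the lowest sum. The highest ratios in the family were 0.85 for col-135 (13.4, 24.9 and 17 FPKM) and 0.80 for col-179 (126, 221 and 255 FPKM), both named after their values were seen.

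Among the lower collagens, col-156 was at 269, 127 and 208 FPKM, and the log2 of its FPKM ratio was -1.08 (95% counting interval -1.15 to -1.02). The low-abundance col-70 was at 10.9, 4.2 and 4.51 FPKM. A run of 3 neighbours on chromosome X was lower, col-168 (178, 85.4 and 122.1 FPKM), col-169 (126, 60.6 and 67.0 FPKM) and col-170 (130, 84.4 and 77.5 FPKM). In these neighbours and in col-70 gfp RNAi was the highest of the 3 libraries. By absolute level the largest difference of any gene lower in the library labelled ham-3 was in col-144, at 2941, 1891 and 2230 FPKM, followed within the family by col-117 at 4056, 3207 and 3735 FPKM. That ranking by absolute difference was chosen after the values were seen.

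Collagens that shape the body and form the annular furrows did not share that direction. All 5 furrow collagens kept were above 0, with a median of 0.25 and 0 members at 1.5-fold. They include dpy-8 (31.7, 40.2 and 27.1 FPKM) and dpy-10 (28.8, 35.4 and 30.5 FPKM), and both were highest in the library labelled ham-3. Of 11 other body shape collagens 7 were above 0 and none was at 1.5-fold, with bli-2 at 264, 330 and 288 FPKM and dpy-13 at 1055, 868 and 745. The enzymes that cross-link and trim collagens had a median of 0.01 over 16 genes, and the lowest was the peroxidase gene mlt-7 (50.9, 34.6 and 71.9 FPKM).

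Other cuticle genes were split. Cuticlins and other zona pellucida genes, which encode non-collagen cuticle and apical matrix proteins, had a median of -0.16 over 28 genes with 18 below 0. The lowest was cut-2 (236, 156 and 159 FPKM) and the highest noah-2 (36.0, 54.7 and 34.1 FPKM), which encodes an apical matrix protein needed at the moult. The relative noah-1 was at 33.28, 44.2 and 27.8 FPKM, so both noah genes were high in the library labelled ham-3 only. Of 20 moulting genes 16 were above 0, with a median of 0.07, and noah-2 was the 1 at 1.5-fold. Astacin metalloproteases, several of which process cuticle proteins, were below 0 in 21 of 30 genes (median -0.10), led by nas-22 at 15.3, 9.40 and 16.4 FPKM.

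Hedgehog-related genes, secreted proteins many of which are made by the skin, had a median of -0.05 over 39 genes. At 1.5-fold, 3 were lower (7.69%, against 2.85% of all genes) and 1 higher (2.56%, against 1.64%). The warthog gene wrt-8 was at 9.80, 3.86 and 8.67 FPKM, and the log2 of its FPKM ratio was -1.34 (95% counting interval -1.61 to -1.08). The related wrt-4 was at 65.9, 35.4 and 41.9 FPKM and grl-16 at 495, 319 and 388. All 3 were lowest in the library labelled ham-3. Patched-related genes, whose products resemble the hedgehog receptor, had a median of 0.02 over 26 genes and none at 1.5-fold.

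**Figure D3:**
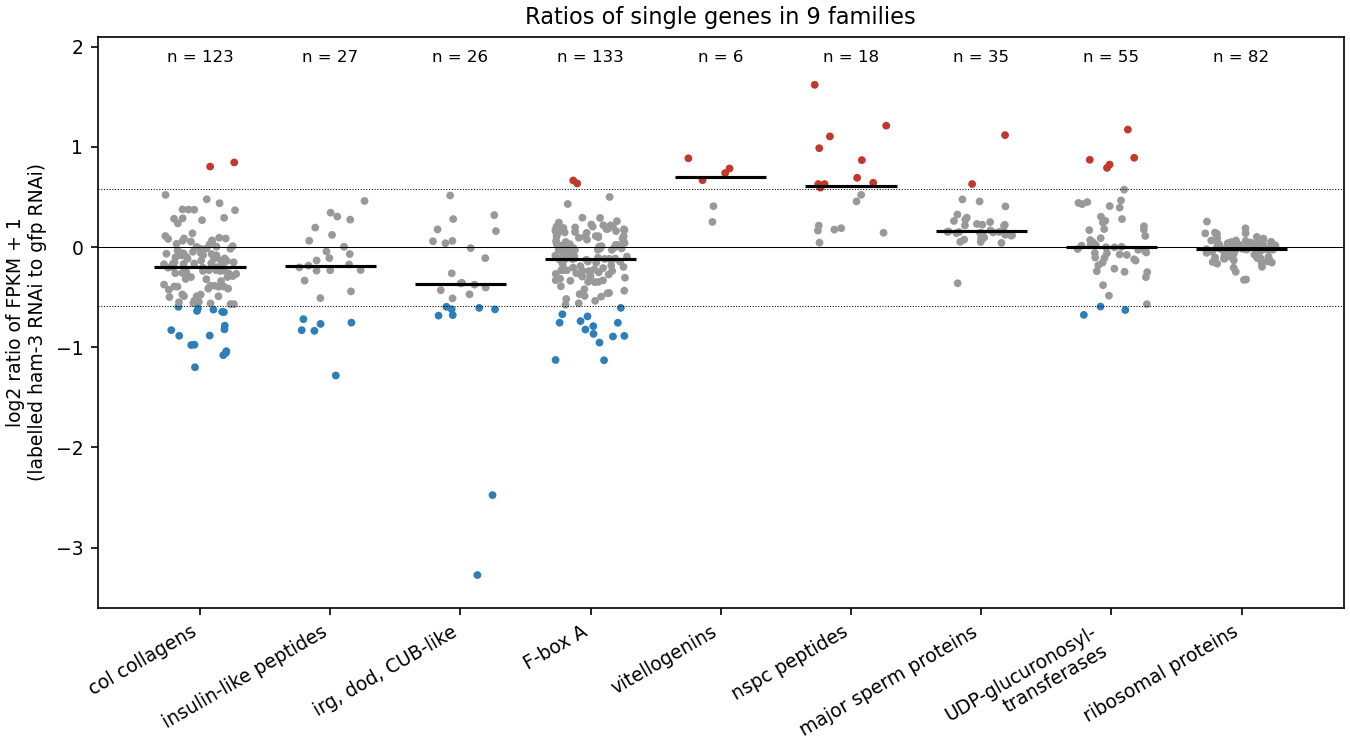
Each point is 1 kept gene of the named family, with its log2 ratio of FPKM + 1; thick lines are medians, dotted lines mark 1.5-fold, and points spread sideways only to show them. The col collagens have a median of -0.20 with 17 genes beyond the lower line, nspc peptides lie wholly above 0 with 10 of 18 beyond the upper line, and ribosomal proteins lie within 1.5-fold.

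Genes named for the response to infection or for control by DAF-16 leaned lower. The irg, dod and CUB-like genes had a median of -0.37 over 26 genes, with 8 lower at 1.5-fold (30.8% of the list, against 2.85% of all genes) and 0 higher. The authors' deposited lists hold 12 of them as lower (46.2%, against 3.63% of all genes) and 1 as higher (3.85%, against 1.76%). Those lists come from the same 2 libraries, so they are no separate support for the direction. Beside the C32H11 neighbours, dod-19 was at 275, 172 and 323 FPKM, dod-22 at 15.4, 9.22 and 13.2, and dod-17 at 41.7, 27.2 and 55.9. All were lowest in the library labelled ham-3. Classical DAF-16 stress targets had a median of -0.12 over 20 genes with 4 lower at 1.5-fold, but all 4 are dod genes that the first list also holds.

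Other defence families leaned one way or spread both ways. The pals genes, some of which respond to intracellular pathogens, had 12 of 16 members below 0 (median -0.21) and 1 lower at 1.5-fold, the pals member dct-3 at 5.34, 3.15 and 3.88 FPKM. Galectins, which bind beta-galactosides, had 9 of 12 below 0 (median -0.11) and none at 1.5-fold, with lec-6 at 1361, 1072 and 1205 FPKM. C-type lectins, a large family with many infection-induced members, leaned the other way. Their median was 0.11 over 97 genes. At 1.5-fold, 10 were higher (10.3%, against 1.64% of all genes) and 3 lower (3.09%, against 2.85%). The abundant clec-209 went against its family at 659, 331 and 785 FPKM. Saposin-like and antimicrobial peptide genes had a median of 0.00 over 58. At 1.5-fold, 4 were higher (6.90%, against 1.64% of all genes) and 6 lower (10.3%, against 2.85%). Their transcripts are short, with a median of 385 bases. Among the members at 1.5-fold were fipr-26 (36.2, 19.2 and 26.0 FPKM) and fipr-27 (0.640, 6.09 and 3.63 FPKM). Lysozymes had 1 gene in each direction, with lys-4 at 76.5, 130 and 121 FPKM.

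Antioxidant genes were lower by small amounts. Of 23 oxidative stress genes 18 were below 0, with a median of -0.14 and 1 at 1.5-fold, the glutathione peroxidase gene gpx-6 at 3.40, 1.64 and 2.42 FPKM. Across the gpx genes, a grouping by name made after values were seen, 7 of 8 were below 0 and their summed level was 428, 383 and 420 FPKM. Cytosolic heat shock genes had a median of 0.02 over 19 genes, with the small heat shock gene hsp-12.3 the 1 member at 1.5-fold (14.7, 25.9 and 14.3 FPKM). Endoplasmic reticulum and mitochondrial stress genes had medians of 0.05 over 24 and 0.04 over 7, with 0 at 1.5-fold.

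Yolk protein genes were higher. All 6 vitellogenins, made in the adult intestine and taken up by oocytes, were above 0, with 4 at 1.5-fold (66.7% of the family, against 1.64% of all genes). Of these vit-1 was at 27.5, 51.7 and 87.9 FPKM and vit-4 at 21.2, 37.2 and 74.1, while the most abundant, vit-2, was at 449, 535 and 658 FPKM with a log2 ratio of 0.25. The vit-2 gene was named after its values were seen. In all 3 genes gfp RNAi was the lowest and swsn-2.2 RNAi the highest. The copies vit-3, vit-4 and vit-5 are near-identical, so single copies are uncertain.

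Detoxification enzymes spread to both sides or leaned higher. Glutathione S-transferases had 31 of 41 above 0 (median 0.20). At 1.5-fold, 0 were lower and 3 higher (7.32%, against 1.64% of all genes), including gst-14 at 0.539, 2.13 and 0.822 FPKM. UDP-glucuronosyltransferases, which attach sugars to small molecules, had a median of 0.00 over 55 genes. At 1.5-fold, 5 were higher (9.09%, against 1.64% of all genes) and 3 lower (5.45%, against 2.85%), so the family was spread rather than shifted. Its higher members included ugt-13 (10.1, 19.3 and 17.1 FPKM) and ugt-33 (4.05, 7.94 and 4.33 FPKM). Cytochrome P450 genes had a median of 0.07 over 51, with cyp-14A5 (72.0, 124 and 80.0 FPKM) and cyp-13A5 (5.37, 10.6 and 12.3 FPKM) higher and cyp-34A2 (12.3, 6.33 and 13.7 FPKM) lower. Among ABC transporters, which pump compounds out of cells, 36 of 48 were above 0 (median 0.11), and pgp-1 was the 1 at 1.5-fold (4.42, 7.25 and 7.78 FPKM).

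Lipid genes held close to control apart from single members. Fatty acid desaturases and elongases had a median of -0.02 over 16 with 0 at 1.5-fold. The acyl-CoA dehydrogenase gene acdh-1, a classical dietary sensor gene in worms, was at 332, 202 and 390 FPKM, low in the library labelled ham-3 alone. Its group had a median of 0.02 over 39 genes. The lipase gene lips-6 was at 6.12, 2.37 and 5.52 FPKM, and the fatty acid binding protein genes lbp-1 and lbp-6 were at 93.9, 64.8 and 89.1 FPKM and at 905, 630 and 724 FPKM. The sphingolipid list had asm-3 higher and tag-38, a sphingosine phosphate lyase-like gene, lower at 14.8, 7.33 and 18.3 FPKM.

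Insulin-like peptides, which bind the DAF-2 receptor, were lower in most members. Of 27 kept, 19 were below 0 (median -0.18), with 6 lower (22.2%, against 2.85% of all genes) and 0 higher at 1.5-fold. Their transcripts are short, with a median of 432 bases. Of all genes with transcripts of 300 to 500 bases, 6.42% were lower at 1.5-fold, and of those up to 300 bases 17.7%. The most affected was ins-20, at 14.8, 5.49 and 6.08 FPKM, a log2 ratio of -1.28. The genes ins-11 (5.84, 2.85 and 4.52 FPKM) and ins-14 (3.21, 1.36 and 3.22 FPKM) were also lowest in the library labelled ham-3. The authors' deposited lists hold 1 member as lower (3.70%, against 3.63% of all genes) and 0 as higher. The intracellular insulin pathway had a median of 0.02 over 14 genes with 0 at 1.5-fold.

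Neuropeptide, synaptic and HSN genes were near control, while the few chemosensory receptor genes kept were spread more widely. FMRFamide-like peptides had a median of 0.07 over 30 genes and 0 at 1.5-fold, and nlp neuropeptides one of -0.02 over 73 with 2 in each direction, nlp-32 being higher at 15.9, 28 and 17.6 FPKM. Of 27 serotonergic and HSN genes 19 were kept, with a median of 0.04 and 0 at 1.5-fold. Among these, ham-2, needed for HSN migration, was at 3.03, 2.17 and 2.61 FPKM and the fate regulator unc-86 at 2.42, 3.35 and 3.34. Both are weak in whole animals and lie on opposite sides of control. The 5 HSN marker genes summed to 10.6, 11.1 and 28.99 FPKM, but sem-4 was listed at 0 in the first 2 libraries and at 17.6 FPKM under swsn-2.2 RNAi, and only 3 of the 5 were kept. In the octopamine and tyramine list tbh-1 was the 1 gene of 8 at 1.5-fold. Synaptic genes (median 0.01 over 28) and acetylcholine receptor subunits (0.06 over 19) had 0 at 1.5-fold, and potassium channels had 30 of 48 below 0 (median -0.04) with 0 at 1.5-fold. Among chemosensory receptor genes 33 of 1613 were kept, with a median of -0.13. At 1.5-fold, 5 were lower (15.2%, against 2.85% of all genes) and 2 higher (6.06%, against 1.64%), among them str-7 at 5.58, 2.23 and 4.16 FPKM. The 33 genes are weak in whole animals and summed to 135 FPKM in gfp RNAi. Weak genes were spread more widely in general. Of all kept genes with a mean of 2 to 5 FPKM, 5.36% were lower and 3.34% higher at 1.5-fold. Of those under 2 FPKM, 4.83% were lower and 3.80% higher. Whether the receptor genes differ from genes of like level was not tested.

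Sperm genes lay slightly above control. Of 35 major sperm protein genes, which encode the cytoskeletal and signalling protein of nematode sperm, 34 were above 0 (median 0.16), and 2 were at 1.5-fold. The higher of these, msp-74, was at 10.3, 23.6 and 14.7 FPKM. The family's summed level was 18351, 20626 and 19412 FPKM, and its copies are too alike for reads to be assigned with certainty. Other sperm genes were above 0 in 46 of 63 (median 0.10), with 2 higher at 1.5-fold, ssp-37 at 6.38, 10.8 and 7.86 FPKM and R74.10 at 3.85, 7.33 and 7.5.

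The nspc family of short nematode-specific peptides, whose function is not known, lay above 0 in every kept member. The 18 kept nspc genes had a median of 0.61 and 10 higher at 1.5-fold (55.6% of the family, against 1.64% of all genes). The family was picked out by name, after its values were seen, from the list of nematode-specific peptide families. Over that whole list of 49 kept genes the median was 0.14, with 29 above and 20 below 0 and with 11 higher (22.4%) and 2 lower (4.08%) at 1.5-fold, so the members outside nspc include all 20 below 0 and 1 of the 11 higher. Of the 10, 7 lie in 2 groups of neighbours on chromosome X. In one, nspc-12 was at 106, 172 and 104.1 FPKM, nspc-13 at 22.6, 45.7 and 21.9, nspc-14 at 86.9, 135 and 102, and nspc-15 at 1.74, 4.89 and 4.24. In the other, nspc-16 was at 179, 277 and 188 FPKM, nspc-17 at 24.7, 58.6 and 25.7, and nspc-18 at 9.32, 30.7 and 9.08. Apart from nspc-15, swsn-2.2 RNAi lay near gfp RNAi in these genes and the library labelled ham-3 alone was high. The members outside those groups reached from 0.04 for nspc-4 (97.7, 100.9 and 110 FPKM) to 0.87 for nspc-10 (64.5, 118.5 and 75.2 FPKM). Both nspc-4 and nspc-10 were named after their values were seen. The family's summed level was 1126, 1621 and 1227 FPKM, and its members are similar enough that single genes are uncertain.

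Germline groups leaned above 0 by less than 1.5-fold. Of 27 germline stem cell and GLD genes, regulators of mitosis and meiosis in the gonad, 24 were above 0 (median 0.13). P granule and germline Argonaute genes had 23 of 26 above 0 (median 0.12), and eggshell and oocyte genes 23 of 27 (median 0.15), with 0 at 1.5-fold in all 3 lists. Examples are pgl-3 (43.9, 53.9 and 45.9 FPKM), a P granule scaffold gene, and sygl-1 (27.3, 34.9 and 36.7 FPKM), a target of germline Notch signalling. The eggshell genes perm-2 and perm-4 lay on the other side, at 149, 118.8 and 221 FPKM and at 152, 117 and 197 FPKM. Meiosis, DNA replication and cell cycle genes had medians of 0.04 over 60, 0.05 over 48 and 0.10 over 49, with 0 at 1.5-fold.

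The ratios moved with transcript length. The median log2 ratio of all genes went from -0.04 for transcripts of at most 300 bases (334 genes) to 0.13 for those over 5000 bases (301 genes). Under swsn-2.2 RNAi the median against the same control was 0.04 and 0.01 in these classes, and 0.10 for transcripts of 750 to 1000 bases. Set against genes of like transcript length, the median was 0.05 for the germline stem cell list (0.13 before), 0.04 for the P granule list (0.12 before), 0.10 for eggshell and oocyte genes (0.15 before) and 0.01 for ABC transporters (0.11 before). The vitellogenin median went from 0.70 to 0.58. The col collagens (-0.21), the irg, dod and CUB-like genes (-0.37), glutathione S-transferases (0.22) and major sperm proteins (0.18) kept medians close to their uncorrected ones. That comparison with genes of like length was added after the data were seen.

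**Figure D4:**
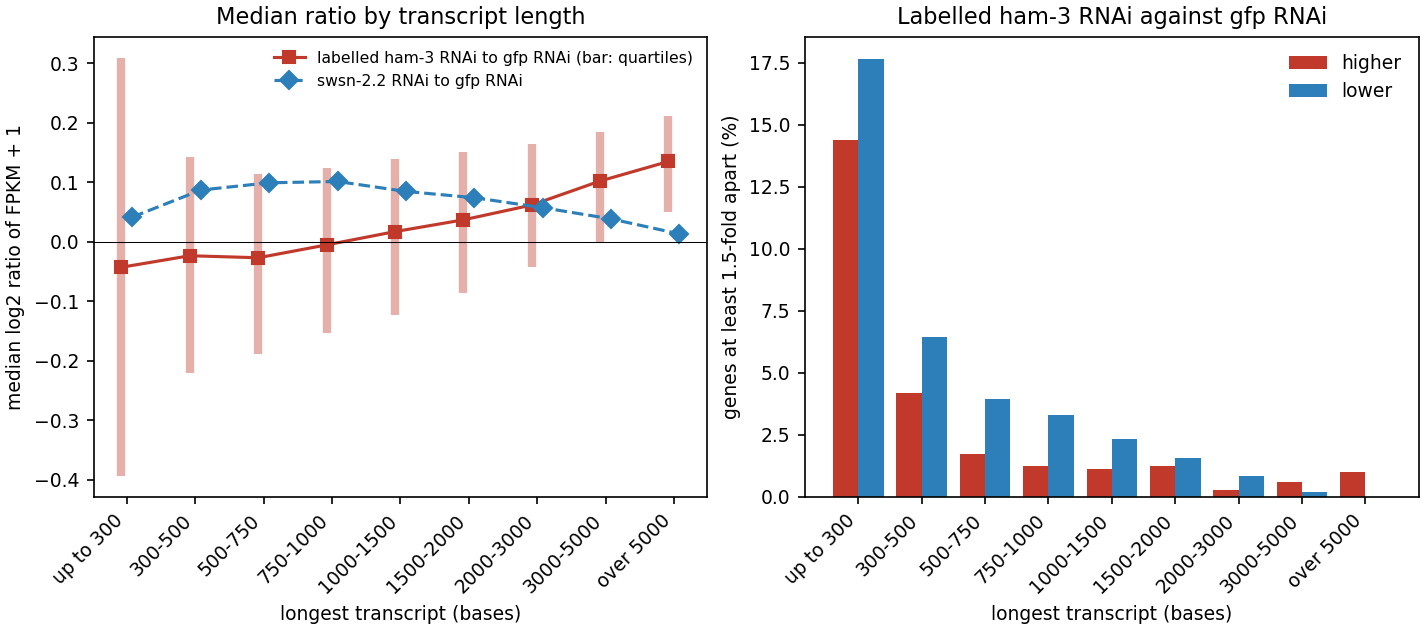
The first panel gives the median log2 ratio of FPKM + 1 by the length of the longest transcript for both RNAi libraries against gfp RNAi, with quartile bars for the library labelled ham-3; the second gives the percent of genes at least 1.5-fold higher or lower in that library. The median of the labelled library goes from -0.04 to 0.13, and the share lower at 1.5-fold goes from 17.7% in the shortest class to 0% in the longest.

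Short transcripts held many of the large differences. Of the 43 genes at least 2-fold higher 26 have a longest transcript under 500 bases, and of the 73 at least 2-fold lower 36 do. Transcripts of at most 300 bases were at least 1.5-fold higher in 14.4% and lower in 17.7% of genes, against 1.64% and 2.85% over all. Small nucleolar RNAs were spread widely, with 8 higher (20%) and 7 lower (17.5%) of 40 at 1.5-fold. Among 13320 protein-coding genes 171 were higher (1.28%) and 348 lower (2.61%) at 1.5-fold.

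Ribosomal RNA was higher and the mitochondrial transcripts lower. All 8 rrn entries kept, grouped by name after their values were seen, were above 0. Of these 6 were higher at 1.5-fold (75%, against 1.64% of all genes), and the summed level of the 8 was 5575, 8758 and 6711 FPKM. Among them rrn-1.1 was at 1408, 2116 and 1621 FPKM and rrn-3.56, a ribosomal RNA pseudogene in RefSeq, at 1398, 2151 and 1525. The rrn-2.1 gene, named after its values were seen, was at 1201, 1272 and 1134. Ribosomal RNA carries no poly(A) tail, and its part in the other results was not tested. Of 14 genes of the mitochondrial genome 11 were below 0 (median -0.23), with a summed level of 8899, 7635 and 8026 FPKM. Both sums show gfp RNAi at one end and the library labelled ham-3 at the other.

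Genes for making and degrading proteins lay near control. Of 82 cytosolic ribosomal protein genes 50 were below 0, with a median of -0.02 and 0 at 1.5-fold. Aminoacyl-tRNA synthetases, which charge tRNAs, were above 0 in 27 of 30 (median 0.09), and proteasome subunits in 24 of 30 (median 0.08), with 0 at 1.5-fold in both. Respiratory chain genes of the nucleus had a median of 0.05 over 46, and V-ATPase subunits one of 0.07 over 20. The F-box A family, candidate substrate adaptors of ubiquitin ligases, leaned lower. It had 84 of 133 genes below 0 (median -0.11), with 14 lower (10.5%) and 2 higher at 1.5-fold. Examples are fbxa-27 (11.8, 4.86 and 8.36 FPKM), fbxa-30 (8.95, 3.56 and 7.32 FPKM) and fbxa-59 (26.0, 12.9 and 18.9 FPKM), with the library labelled ham-3 lowest and gfp RNAi highest in each. The MATH and BATH genes (median -0.06 over 60) and the F-box B and C genes (-0.08 over 24) had 1 gene between them at 1.5-fold, bath-25.

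Regulators of chromatin and of development lay near control. Other chromatin remodellers had 18 of 21 above 0 (median 0.11), synMuv B and DREAM genes, repressors of germline and vulval programmes in the soma, 18 of 20 (median 0.12), and Polycomb, Trithorax and MES genes 13 of 17 (median 0.07), with 0 at 1.5-fold. Their transcripts are long, and against genes of like length the medians were 0.05, 0.07 and -0.01. Histone genes had a median of 0.09 over 64. At 1.5-fold, 3 were higher (4.69%, against 1.64% of all genes), including his-62 at 5.88, 10.8 and 5.98 FPKM. The median histone transcript has 411 bases, and of all genes with transcripts of 300 to 500 bases 4.19% were higher at 1.5-fold. Of 26 vulval induction genes 23 were above 0 (median 0.11), and 1 was at 1.5-fold and lower, the fibroblast growth factor gene egl-17, at 5.07, 2.59 and 3.83 FPKM. The egl-17 product guides the sex myoblasts to the vulva. Nuclear hormone receptors had a median of 0.00 over 169 genes, with 1 at 1.5-fold, nhr-234 at 6.58, 3.80 and 4.76 FPKM. The LIM homeobox gene lim-6 (5.92, 3.45 and 5.91 FPKM) and the mesodermal hlh-8 (3.12, 1.73 and 2.67 FPKM) were the lowest of their lists, and the muscle regulator hlh-1 (4.86, 7.31 and 7.65 FPKM) the highest of its list. Heterochronic, Wnt and TGF-beta genes had medians of 0.10, 0.09 and 0.05 with 0 at 1.5-fold. The 29 genes kept for feeding RNAi itself had a median of 0.06 and 0 at 1.5-fold.

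**Figure D5:**
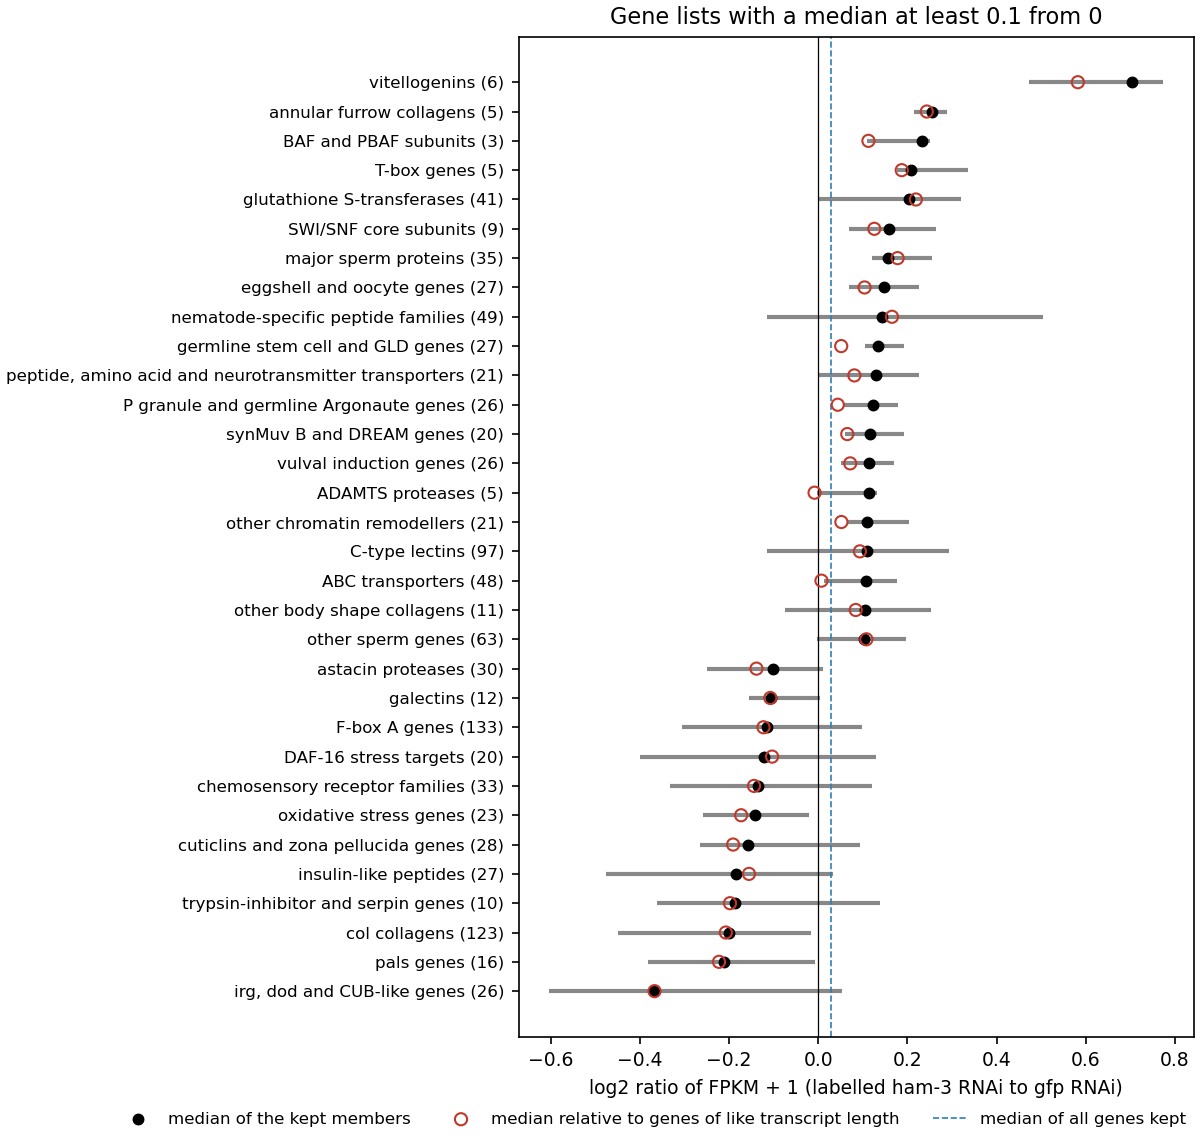
Median (black) and quartiles (grey bar) of the log2 ratio for the 32 of 94 gene lists whose median lay at least 0.1 from 0, with the number of kept members in brackets and, in red, the median relative to genes of like transcript length. Vitellogenins (0.70) are at the top, the irg, dod and CUB-like genes (-0.37) at the bottom, and the red circles of the ABC transporters (0.01) and germline stem cell genes (0.05) lie nearer 0 than the black points.

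Some of the differing genes sit side by side. There were 12 runs of at least 3 neighbouring kept genes that all differed by 1.5-fold in a single direction, 8 of them lower and 4 higher. On chromosome IV, beside the C32H11 run, F56D6.8 (98.4, 48.7 and 50.6 FPKM) and dct-8 (48.5, 24.4 and 18.6 FPKM) lay in one run and dct-7 (97.3, 62.2 and 60.3 FPKM) and F15E6.4 (61.8, 25.6 and 26.8 FPKM) in another. In these 4 genes both RNAi libraries were low against gfp RNAi. The third and weakest member of each run, F56D6.9 (3.14, 1.71 and 2.83 FPKM) and F15E6.10 (1.99, 0.971 and 1.65 FPKM), lay nearer gfp RNAi under swsn-2.2 RNAi. On chromosome V the astacin gene nas-22 and the collagen gene col-157 (440, 285 and 466 FPKM) shared a run, and F47B8.3, F47B8.4 and F47B8.5 formed another, in which F47B8.4 was at 15.7, 8.78 and 10.9 FPKM. The run on chromosome II held fbxa-166 with C08E3.1 and C08E3.13, which overlap in their deposited coordinates, so their reads may be shared. The lower run on chromosome I held 3 genes of F30A10, with F30A10.14 at 19.3, 12.3 and 24.5 FPKM. The higher runs were both groups of nspc genes and 2 groups that hold ribosomal RNA genes. Chromosome V had the largest shares of genes at 1.5-fold among the nuclear chromosomes, 2.23% higher and 4.15% lower, and chromosome II the smallest share higher (1.19%) and chromosome III the smallest share lower (1.96%).

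The tissue markers that were kept did not stand apart at 1.5-fold. Of 61 markers of 12 tissues 60 were found and 52 kept, and 0 of those kept differed by 1.5-fold. Their log2 ratios ranged from -0.20 to 0.14 in the intestine, from -0.05 to 0.45 in hypodermis and seam, from -0.02 to 0.50 in body wall muscle and from 0.11 to 0.28 in oocytes. Among the kept markers the excretory ones reached the lowest value, -0.54 for the aquaporin gene aqp-8 (41.0, 27.9 and 39.6 FPKM). Left out of these ranges were markers listed at 0 in 1 library of the pair. These were ges-1 of the intestine (29.7, 0 and 0 FPKM), egg-1 of oocytes (0, 68.3 and 0), fer-1 of spermatogenesis (0, 5.53 and 3.49) and ptr-10 of glia (2.70, 0 and 2.48). Such a 0 can be a failed estimate. The part of the markers in the gene groups above was not tested.

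The authors' deposited lists for this pair hold 259 higher and 549 lower genes, with authors' p-values up to 0.00992 and q-values up to 0.159 and 0.160. Of these 250 and 515 are among the genes kept, and 107 and 254 of them passed 1.5-fold here. That is 42.8% of the authors' higher genes and 49.3% of their lower genes, and it makes up 45.9% and 62.9% of the genes at 1.5-fold. A q-value of at most 0.05 was reached by 135 and 315 genes of the authors' lists. The authors' p-values and q-values rest on the same 2 libraries, 1 a side, so they do not measure the variation between cultures. Of 123 col collagens the authors' deposited lists hold 35 as lower (28.5%) and 5 as higher (4.07%). Of 49 members of the nematode-specific peptide families, those lists hold 9 as higher (18.4%) and 1 as lower (2.04%). Of the 6 vitellogenins, 5 are held as higher (83.3%). Over all kept genes the shares are 3.63% lower and 1.76% higher. The authors' deposited table was read as holding no test for 848 of the kept genes, whose p-values were taken as placeholders.

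Depth was inferred and unequal. The spacing of low FPKM values gave 19740000 fragments for gfp RNAi, 30610000 for the library labelled ham-3 and 30640000 under swsn-2.2 RNAi. For a transcript of 1000 bases 1 fragment is then worth 0.0607 FPKM in gfp RNAi and 0.0387 in the library labelled ham-3. Counting intervals could be given for 3395 genes, and they lay wholly above 0 for 863, wholly below 0 for 400 and held 0 for 2132. Of the genes at 1.5-fold with an interval, 45 of 46 higher and 67 of 68 lower had one that excluded 0. These genes were picked by the same values that place the interval, so this is no separate support for them. Transcripts under 500 bases have no interval.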

How the data were processed

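Poly(A) RNA of whole L4 larvae was sequenced as read pairs of 73 bases, per the labels. The authors' deposited gene and transcript tables hold FPKM values made with Cufflinks, and log2 folds and p-values made with Cuffdiff, per the submitters' processing notes. The authors' deposited short lists add a q-value. The program versions, the aligner and the build were not given in the sources used here. The deposited start and end of many reverse-strand genes cover only their first exon (3652 of the genes kept), so coordinates are printed only where they span the gene.

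Groups were taken from the labels, and FPKM values kept the scaling the authors gave them. Genes with a mean of at least 1 FPKM over the pair and above 0 in both libraries were kept, 32 of which are second entries of a gene ID. The log2 ratio of FPKM + 1 was computed anew, and genes past 2-fold or 1.5-fold were counted. With 1 library a side no p-value was computed. The members and the 94 gene lists were chosen with earlier results of these data known, so no list is independent support for its direction.

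Named genes were the 15 largest and 15 smallest ratios of genes with a gene name and the 5 largest and 5 smallest of genes without one, all with a mean of at least 5 FPKM. Without that floor, they were also the 4 members per list with the largest absolute ratio, ham-3, swsn-2.2 and every run of at least 3 neighbours past 1.5-fold in a single direction. Where the text names another gene, it says so. Gene names come from the deposited tables and from RefSeq (assembly WBcel235), in which 13976 of the kept genes were matched by sequence name. Transcript lengths were those of the longest Ensembl transcript (13997 genes).

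Fragment totals, which the tables do not hold, were read from the spacing of FPKM values up to 0.3 in genes with 1 transcript of at least 500 bases, and 92.8%, 92.3% and 90.8% of the values checked were within 0.1 of a whole number of fragments in the order gfp, ham-3 and swsn-2.2 RNAi. Intervals of the FPKM ratio are exact conditional binomial (Clopper-Pearson, 95%) for genes with 1 transcript, of at least 500 bases, whose deposited span lay within 10 bases of the ends of an Ensembl transcript or, on the reverse strand, of its first exon. The intervals cover counting error only. Polymerase chain reaction copies are not independent molecules, so the intervals can be too narrow even for that error.

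The steps were tested on simulated data. Computations used Python 3.11.15, numpy 2.4.6, pandas 2.3.3, scipy 1.17.1 and matplotlib 3.10.9.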

Additional observations from a re-analysis of the deposited data

How the results depend on the processing

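As shares of the genes kept, 0.303% were higher and 0.514% lower at 2-fold, and 1.64% and 2.85% at 1.5-fold, which are counts of 43, 73, 233 and 404. A pseudocount of 0.1 FPKM gave 0.691% and 1.16% at 2-fold and 2.69% and 4.48% at 1.5-fold, and one of 5 FPKM gave 0.106%, 0.141%, 0.486% and 1.1% in the same order. A mean of at least 5 FPKM gave 0.192%, 0.347%, 1.09% and 2.17% of 10946 genes, which is 21 higher and 38 lower at 2-fold and 237 lower at 1.5-fold. Keeping genes listed at 0 in 1 library gave 2.4% and 1.76% at 2-fold and 3.69% higher at 1.5-fold. Leaving out transcripts under 500 bases, added after the data were seen, gave 0.119%, 0.262%, 1.05% and 2.09% of 12599 genes. In each of these the count moved by over 1.5 times. The other 25 of 44 recomputed counts stayed within 1.5 times of their main value. Of the 32 lists with a median at least 0.1 from 0, 1 changed sign under 1 setting, the ADAMTS proteases at -0.01 against 0.11 when centred on genes of like transcript length. No named gene and no list past 1.5-fold changed sign. For single genes that outcome was largely fixed in advance, since a pseudocount or a filter cannot change the sign of a ratio. Centring took only 0.03 from each log2 ratio, and the upper-quartile scaling had a log2 factor of only -0.016. No paired analysis was possible because each group has 1 library, and for the same reason no library could be left out. A fold here describes 2 cultures, and the depth of 19740000 fragments in gfp RNAi limits genes near 1 FPKM.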

Other observations

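Genes listed at 0 in 1 library of the pair belong in no ratio. Of the 494 with a mean of at least 1 FPKM, 309 were listed at 0 in gfp RNAi and 185 in the library labelled ham-3. At least 10 FPKM in the other library of the pair was reached by 198 and 93 of them. The authors' deposited table was read as holding no test for 141 and 68 of them. Among them, the cuticle collagen gene col-166 had 713 FPKM in the library labelled ham-3 and 0 in each of the others. The chaperone gene dnj-12 (202 FPKM) and the lysosomal membrane protein gene lmp-1 (114 FPKM) had the same pattern. Listed at 0 in gfp RNAi alone were pgam-5, a mitochondrial phosphatase gene, at 129.2 and 135.7 FPKM in the library labelled ham-3 and under swsn-2.2 RNAi, and sptl-1, which encodes a subunit of serine palmitoyltransferase, at 114 and 133 FPKM. In the other direction R09E10.6 had 409 FPKM in gfp RNAi and 0 in each of the others. These genes were named after their values were seen, and a value of 0 in such a table can be a failed estimate.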
